A study of Homo sapiens with 18 samples.

Results

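Long noncoding RNAs (lncRNAs) linked to p53 or known for their abundance were followed across knockdown of ANKRA2 or RFXANK and activation of p53 in U2OS cells. The 8 lncRNAs were chosen by name out of 26702 genes in the deposited tables, of which 5234 carry a long noncoding biotype. NEAT1, PVT1, LINC-PINT, TP53TG1, MALAT1 and GAS5 were taken as p53-linked or abundant lncRNAs. AC004817.3 and FBXL19-AS1 were taken because of their large log2 fold changes after siANKRA2 in these same data. AC004817.3 had values of 6.12 in DMSO and 3.09 in Nutlin-3a, and FBXL19-AS1 had -1.30 and -3.04. Their values in siANKRA2 cells are therefore descriptions without a test.

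Polyadenylated RNA of U2OS, a human osteosarcoma line, was sequenced from 18 samples in 6 groups of 3. Cells transfected with siControl, siANKRA2 or siRFXANK were each exposed for 24 h to 10 µM Nutlin-3a or to the solvent DMSO. Nutlin-3a activates p53 by keeping MDM2 from binding it. The siRFXANK samples were registered apart from the others and without siControl samples of their own, so batch and siRFXANK cannot be told apart in siRFXANK over siControl. Whether samples of a group came from separate cultures is not given in the sources used here, so the p-values measure the spread between these samples, which may be technical. The depth of each sample is unknown.

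p53 is a transcription factor whose targets include lncRNAs beside protein-coding genes. NEAT1 is a p53 target that builds paraspeckles, MALAT1 gathers in nuclear speckles, and PVT1 lies beside MYC and has a p53-responsive start site. LINC-PINT and TP53TG1 are induced by p53, while GAS5 is a host of small nucleolar RNAs (snoRNAs) whose spliced RNA is degraded by nonsense-mediated decay when it is translated.

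In the GENCODE 29 annotation of GRCh38, the 8 genes lie on 6 chromosomes. NEAT1 (ENSG00000245532) covers chr11:65422774-65445540 and MALAT1 (ENSG00000251562) covers chr11:65497688-65506516, both on the plus strand. On the minus strand are TP53TG1 (ENSG00000182165) at chr7:87325225-87345515 and LINC-PINT (ENSG00000231721) at chr7:130938963-131110176. GAS5 (ENSG00000234741) is on the minus strand at chr1:173863900-173868882. AC004817.3 (ENSG00000269927) is an intergenic transcript of 1 exon on the minus strand at chr14:71141125-71143253, and FBXL19-AS1 (ENSG00000260852) is an antisense transcript of 1 exon on the minus strand at chr16:30919319-30923269.

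RefSeq promoter sequences of GRCh38.p14, from 250 bases before to 50 after a start, matched 5 of the 8 lncRNAs. Below are those of MALAT1 (first of its entries, chr11:65497488-65497787, plus strand), whose level in DMSO was higher after either knockdown, and of FBXL19-AS1 (chr16:30923220-30923519, minus strand), which was lower in siRFXANK and siANKRA2 cells. Capitals mark GTTGCC, a core of the X-box bound by RFX factors, searched on both strands.
MALAT1: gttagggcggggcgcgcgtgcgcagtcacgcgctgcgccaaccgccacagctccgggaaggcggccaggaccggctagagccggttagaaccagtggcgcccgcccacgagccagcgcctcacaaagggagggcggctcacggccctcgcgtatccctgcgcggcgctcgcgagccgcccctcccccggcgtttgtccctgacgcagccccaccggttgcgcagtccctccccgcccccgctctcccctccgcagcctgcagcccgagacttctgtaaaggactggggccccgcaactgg
FBXL19-AS1: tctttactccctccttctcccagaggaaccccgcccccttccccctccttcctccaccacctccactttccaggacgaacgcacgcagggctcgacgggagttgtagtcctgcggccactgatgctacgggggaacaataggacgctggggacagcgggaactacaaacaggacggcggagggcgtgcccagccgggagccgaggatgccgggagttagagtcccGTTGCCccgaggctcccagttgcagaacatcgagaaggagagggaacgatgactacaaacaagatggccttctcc
GTTGCC occurs in 12.2% of 35116 promoters of this length. Of the lncRNAs with an entry, FBXL19-AS1 had a match, with its first base at position -25 from the start. The window printed for FBXL19-AS1 lies within FBXL19, transcribed the other way, and overlaps no exon of FBXL19 in GENCODE 29. The consensus decamer of p53 had no match in any of them and occurs in 6.63% of all promoters. Both strands were searched, and a match or its absence describes the letters of this window alone.

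The siRNA targets were examined first. In the authors' deposited table, ANKRA2 had a log2 fold change of -1.81 after siANKRA2 in DMSO (SE 0.18) and -2.58 in Nutlin-3a (SE 0.12). RFXANK had -2.96 and -3.16 after siRFXANK (both SE 0.10). Each target also moved after the other siRNA (DESeq2 adjusted p under 0.05). RFXANK had -0.37 in DMSO and -0.44 in Nutlin-3a after siANKRA2, and ANKRA2 had 0.73 and 0.46 after siRFXANK. The direction of the knockdown comparisons was tested on the standard errors, which grow as a mean gets smaller. Among genes of mean 10 or more whose knockdown value passed 1 or -1 on the log2 scale in either treatment, the reading of knockdown over control fitted better for 4274 of 4305 genes after siANKRA2 and for 2017 of 2025 after siRFXANK. The deposited mean of ANKRA2 was 31568, or 155 times the mean of its recovered group levels. These levels ran from 27.2 (siANKRA2, DMSO) to 507 (siRFXANK, Nutlin-3a). For ANKRA2 the deposited mean is thus not an average of these recovered levels, and the cause was not tested.

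The level of each lncRNA in each group was recovered from the deposited fold changes and standard errors, since the tables give no values per sample. Levels are in normalized counts and are approximate. Whether the deposited mean covers samples outside these groups was not tested, so its ratio to the recovered levels is a limited check. The ratio of the deposited mean to the mean recovered level had a median of 0.994 over 18453 genes, with 0.722 and 1.35 at the 5th and 95th percentiles. For FBXL19-AS1 the ratio was 1.46, for AC004817.3 1.27, for NEAT1 1.25 and for GAS5 0.796. Differences in level can reflect fewer cells of a type or less RNA per cell, which cannot be told apart in bulk samples.

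**Figure D1:**
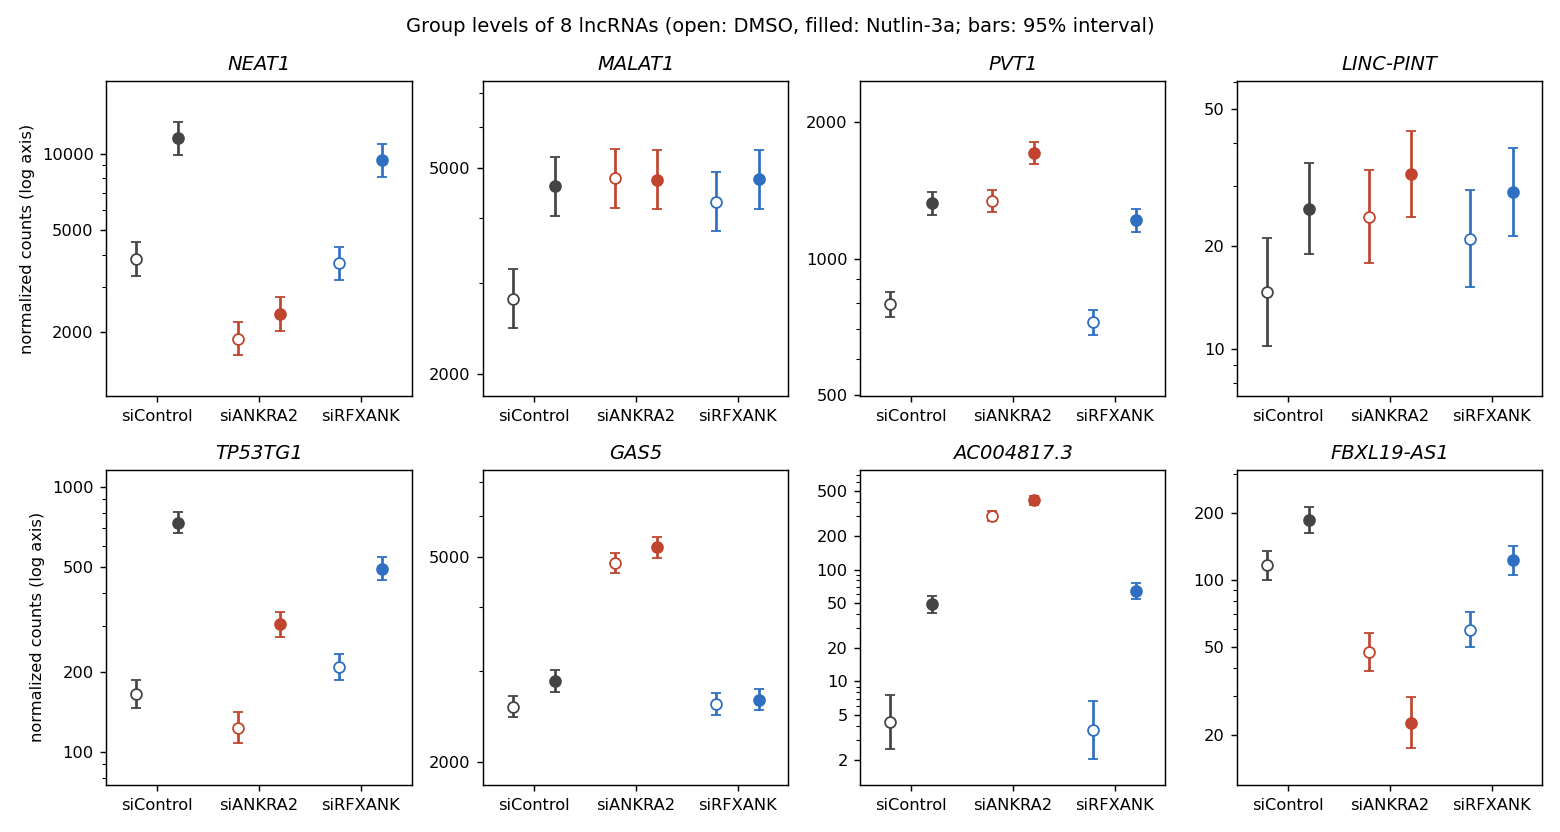
Recovered group levels of the 8 lncRNAs in normalized counts on log axes that differ between panels, with open circles for DMSO, filled circles for Nutlin-3a and bars for 95% intervals. NEAT1 in siANKRA2 cells lies below its siControl levels in both treatments, while GAS5 lies above its own. AC004817.3 and FBXL19-AS1 were chosen on siANKRA2 values, so their siANKRA2 levels are descriptions.

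Per kilobase of annotated exon, GAS5 had the highest level in siControl cells in DMSO, 705 normalized counts per kb, followed by MALAT1 at 317. NEAT1 (170 per kb), TP53TG1 (162 per kb) and PVT1 (144 per kb) were close to each other. FBXL19-AS1 had 29.4 per kb, AC004817.3 2.04 per kb and LINC-PINT 1.62 per kb. These values sit low for lncRNAs whose exons are seldom all joined in 1 transcript, since the exons of all annotated transcripts were merged.

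The spread between replicates differed among the lncRNAs. The dispersion of NEAT1 corresponded to a coefficient of variation between replicates of 13.2%, and that of MALAT1 to 11.5%. Among genes of like mean, both lay at the 99.4th percentile, where the median gene had 3.48% and 3.59%. The other 6 lay between the 38.8th (AC004817.3) and the 87.2nd percentile (TP53TG1). The abundant nuclear lncRNAs NEAT1 and MALAT1 were thus measured less precisely than other genes of their abundance, and a change of the same size passes the test less easily for them.

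Nutlin-3a in siControl cells raised 8 of the 8 lncRNAs (DESeq2 Wald test, Benjamini-Hochberg adjusted p under 0.05) and lowered 0, where 21.9% of 25909 genes were higher and 21.2% lower. The median log2 fold change was 0.77 for the 8 lncRNAs and 0.02 for all genes. AC004817.3 and FBXL19-AS1 are among these 8, and the siControl samples compared here also entered their choice. The other 6 were named for p53 or abundance, although earlier results of these data were known when they were chosen. In siANKRA2 cells, Nutlin-3a raised 2 of the 6 lncRNAs with a test and lowered 0, beside 15.5% higher and 17.0% lower of 22738 genes. Their median was 0.34.

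After siANKRA2 in DMSO, 3 of 6 lncRNAs were higher and 2 lower, beside 24.3% and 24.5% of 26702 genes. In Nutlin-3a 2 of 6 were higher and 2 lower, beside 24.6% and 25.5%. After siRFXANK in DMSO, 2 of 8 were higher and 1 lower, beside 20.9% higher and 21.2% lower of 25909 genes. In Nutlin-3a 0 of 8 were higher and 3 lower, beside 19.8% and 19.6% of 25116 genes. These counts after siRFXANK too include AC004817.3 and FBXL19-AS1, measured against the siControl samples that entered their choice.

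The Nutlin-3a response was smaller in siANKRA2 than in siControl cells for 4 of 6 lncRNAs and larger for 0 (normal test of the difference with Benjamini-Hochberg adjusted p under 0.05). Over 22738 genes, 12.5% had a lower and 11.4% a higher response. In siRFXANK cells the response was lower for 2 of 8 lncRNAs and higher for 0, beside 9.64% lower and 11.6% higher of 25116 genes, and both called were among the 6 named for p53 or abundance. The comparisons share siControl samples, and the values of each are given side by side below.

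**Figure D2:**
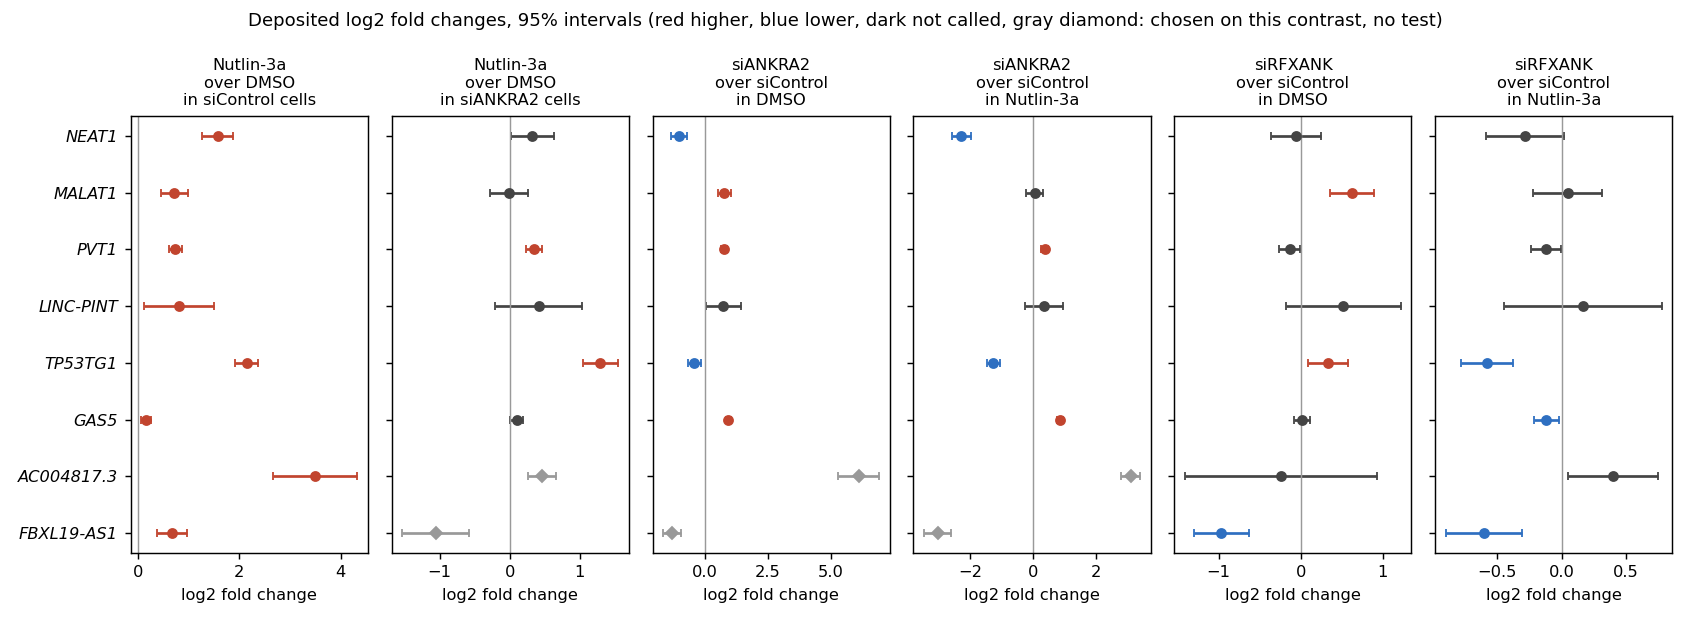
Deposited log2 fold changes of the 8 lncRNAs in the 6 comparisons, with 95% intervals and x axes that differ between panels; red marks higher, blue lower and dark gray not called. Gray diamonds mark AC004817.3 and FBXL19-AS1 where the siANKRA2 values chose them, and all 8 points lie right of 0 for Nutlin-3a in siControl cells.

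NEAT1, the scaffold of paraspeckles, stood at 3865 normalized counts in DMSO and 11493 in Nutlin-3a in siControl cells. In siANKRA2 cells it stood at 1878 and 2350, and in siRFXANK cells at 3714 and 9432. The highest group was thus 6.12 times the lowest, and both siANKRA2 groups lay under all others. Nutlin-3a raised NEAT1 2.97-fold in siControl cells (log2 fold change 1.57, SE 0.16, DESeq2 adjusted p = 9.7e-23). In siANKRA2 cells the value was 0.32 (SE 0.16, DESeq2 adjusted p = 0.11). The response was smaller by a log2 difference of -1.25 (SE 0.22, normal test of the difference, adjusted p = 3.1e-07). siANKRA2 lowered NEAT1 by a log2 fold change of -1.04 in DMSO (DESeq2 adjusted p = 1.7e-10) and of -2.29 in Nutlin-3a (DESeq2 adjusted p = 4.2e-47). Among 416 lncRNAs with a mean of at least 100, 3 had a lower value than NEAT1 in the latter comparison, FBXL19-AS1 among them. After siRFXANK, NEAT1 had -0.06 in DMSO and -0.29 in Nutlin-3a, which did not pass the test (DESeq2 adjusted p = 0.82 and 0.14). Its derived response in siRFXANK cells was 1.34, and the difference from siControl of -0.23 did not pass either (normal test of the difference, adjusted p = 0.56), with a 95% interval from -0.66 to 0.21.

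TP53TG1, named for its induction by p53, stood at 166 normalized counts in DMSO and 735 in Nutlin-3a in siControl cells. It stood at 124 and 303 in siANKRA2 and at 210 and 491 in siRFXANK cells. Every neighbouring pair in this order of levels was separated by a log2 difference whose 95% interval left out 0. In siControl cells Nutlin-3a raised TP53TG1 4.43-fold (log2 fold change 2.15, SE 0.11, DESeq2 adjusted p = 5.5e-78), the largest rise among the 6 lncRNAs named for p53 or abundance. In siANKRA2 cells the rise was 1.29 (SE 0.13, DESeq2 adjusted p = 4.4e-23) and in siRFXANK cells the derived value was 1.23. The response was smaller than in siControl cells after siANKRA2 (-0.85, SE 0.17, normal test of the difference, adjusted p = 7.2e-06). It was also smaller after siRFXANK (-0.92, SE 0.16, normal test of the difference, adjusted p = 3.0e-07). The DMSO levels moved in opposite directions: siANKRA2 lowered TP53TG1 by -0.42 (DESeq2 adjusted p = 0.0037), and siRFXANK raised it by 0.34 (DESeq2 adjusted p = 0.017). In Nutlin-3a both knockdowns lowered it, by -1.28 and -0.58 (DESeq2 adjusted p = 2.6e-32 and 6.5e-08).

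MALAT1, the abundant lncRNA of nuclear speckles, stood at 2796 normalized counts in siControl cells in DMSO and between 4303 and 4777 in the other 5 groups. The siControl DMSO group stands apart, and no neighbouring pair among the other 5 differed beyond its 95% interval. Nutlin-3a raised MALAT1 in siControl cells by 0.72 (SE 0.14, DESeq2 adjusted p = 6.0e-07). In DMSO, siANKRA2 raised it by 0.77 (SE 0.14, DESeq2 adjusted p = 6.2e-08) and siRFXANK by 0.62 (SE 0.14, DESeq2 adjusted p = 2.3e-05). In Nutlin-3a the values were 0.04 and 0.05 (DESeq2 adjusted p = 0.83 and 0.84). Its Nutlin-3a response in siANKRA2 cells was -0.01 (DESeq2 adjusted p = 0.98), a sign that turned to 0.01 and 0.03 when fold changes were centred on genes with a mean of at least 100 or 1000. The response was smaller than in siControl cells after siANKRA2 (-0.73, SE 0.19, normal test of the difference, adjusted p = 0.0012) and after siRFXANK (-0.58, SE 0.19, normal test of the difference, adjusted p = 0.017). The last of these no longer passed at a threshold of 0.01. All the differences that passed include the siControl DMSO samples, and the part of any 1 of these samples was not tested.

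PVT1, the neighbour of MYC, stood at 794 normalized counts in DMSO and 1325 in Nutlin-3a in siControl cells. It stood at 1340 and 1711 in siANKRA2 and at 724 and 1215 in siRFXANK cells. The siANKRA2 DMSO level and the siControl Nutlin-3a level did not differ beyond the 95% interval. Nutlin-3a raised PVT1 by 0.74 in siControl (SE 0.06, DESeq2 adjusted p = 1.8e-31) and by 0.35 in siANKRA2 cells (SE 0.06, DESeq2 adjusted p = 1.8e-08). The response was smaller in the latter by -0.39 (SE 0.09, normal test of the difference, adjusted p = 6.1e-05). siANKRA2 raised PVT1 by 0.76 in DMSO and 0.37 in Nutlin-3a (DESeq2 adjusted p = 7.8e-33 and 1.1e-09). After siRFXANK it had -0.13 in both treatments (DESeq2 adjusted p = 0.092 in DMSO and 0.084 in Nutlin-3a). With fold changes centred on genes with a mean of at least 100 or 1000, the value in Nutlin-3a passed, at adjusted p = 0.047 and 0.018 by the normal distribution. The response differed from siControl by 0.01 in siRFXANK cells, with a 95% interval from -0.17 to 0.18 and a sign that turned on the same centring (normal test of the difference, adjusted p = 0.97).

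LINC-PINT was among the scarcest of the 8 lncRNAs per kilobase in siControl cells in DMSO. It stood at 14.7 and 25.7 normalized counts in siControl, 24.3 and 32.4 in siANKRA2 and 21.0 and 28.7 in siRFXANK cells, in DMSO and Nutlin-3a. No neighbouring pair in the order of these levels differed beyond its 95% interval. Nutlin-3a raised it by 0.81 in siControl cells (SE 0.35, DESeq2 adjusted p = 0.047), which did not pass at a threshold of 0.01, and none of its other 5 comparisons passed. At these counts the SE of a fold change was between 0.31 and 0.36, and a p over the threshold does not show that there was no difference. Of the longest LINC-PINT transcript, 55.4% of stretches of 31 bases also occur in other genes, above all in the overlapping AC016831.6, and reads of the 2 genes may have been split. AC016831.6 rose by 1.77 with Nutlin-3a in siControl cells and by 1.54 after siANKRA2 in DMSO (DESeq2 adjusted p = 6.8e-05 and 0.00066), and its other 4 comparisons did not pass.

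GAS5, a snoRNA host, stood at 2560 normalized counts in DMSO and 2872 in Nutlin-3a in siControl cells. It stood at 4876 and 5221 in siANKRA2 and at 2588 and 2640 in siRFXANK cells, so that the siANKRA2 groups stood apart from the other 4. siANKRA2 raised GAS5 1.90-fold in DMSO (log2 fold change 0.93, SE 0.05, DESeq2 adjusted p = 5.9e-80) and 1.82-fold in Nutlin-3a (0.86, SE 0.05, DESeq2 adjusted p = 5.0e-70). Nutlin-3a raised it in siControl cells by 0.17 (SE 0.05, DESeq2 adjusted p = 0.0025). In siANKRA2 cells the value was 0.10 (SE 0.05, DESeq2 adjusted p = 0.099), which passed when fold changes were centred on genes with a mean of at least 100 or 1000 (adjusted p = 0.041 and 0.013 by the normal distribution). The difference of the responses was -0.07 and did not pass (95% interval from -0.20 to 0.07, normal test of the difference, adjusted p = 0.56). After siRFXANK, GAS5 had 0.02 in DMSO (DESeq2 adjusted p = 0.84) and fell by 0.12 in Nutlin-3a (SE 0.05, DESeq2 adjusted p = 0.038).

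AC004817.3, an intergenic lncRNA of which no function is stated here, covered the widest range. It stood at 4.33 normalized counts in siControl and 3.67 in siRFXANK cells in DMSO, and at 48.7 and 64.0 in Nutlin-3a. In siANKRA2 cells it stood at 301 in DMSO and 416 in Nutlin-3a. Both siANKRA2 groups were thus above the rest, and the lower of them was 69.5 times the siControl DMSO level. Nutlin-3a raised AC004817.3 11.2-fold in siControl cells (log2 fold change 3.49, SE 0.43, DESeq2 adjusted p = 1.8e-15), with siControl DMSO samples that also entered its choice. The derived response in siRFXANK cells was 4.12 and that in siANKRA2 cells 0.47. siRFXANK over siControl was at -0.24 in DMSO (SE 0.60, DESeq2 adjusted p = 0.80). In Nutlin-3a it was at 0.40 (SE 0.18, DESeq2 adjusted p = 0.065), which did not pass. It did when the DESeq2 p was adjusted within genes of mean 10 or more (adjusted p = 0.0496) or 100 or more (adjusted p = 0.0413). Over the recovered group levels of AC004817.3, the siANKRA2 groups add most to the mean.

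FBXL19-AS1, transcribed from the strand opposite FBXL19, stood at 116 normalized counts in DMSO and 186 in Nutlin-3a in siControl cells. In siANKRA2 cells it stood at 47.2 in DMSO and 22.7 in Nutlin-3a, and in siRFXANK cells at 59.5 and 123. Nutlin-3a raised FBXL19-AS1 in siControl cells by 0.68 (SE 0.15, DESeq2 adjusted p = 2.8e-05), while its value in siANKRA2 cells was -1.06 and the derived one in siRFXANK cells 1.04. siRFXANK, which was not used to choose it, lowered FBXL19-AS1 by -0.97 in DMSO (SE 0.17, DESeq2 adjusted p = 1.5e-07) and by -0.60 in Nutlin-3a (SE 0.15, DESeq2 adjusted p = 0.00027), against siControl samples that also entered the choice. The difference of the siRFXANK and siControl responses, 0.36, did not pass (SE 0.23, normal test of the difference, adjusted p = 0.30).

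**Figure D3:**
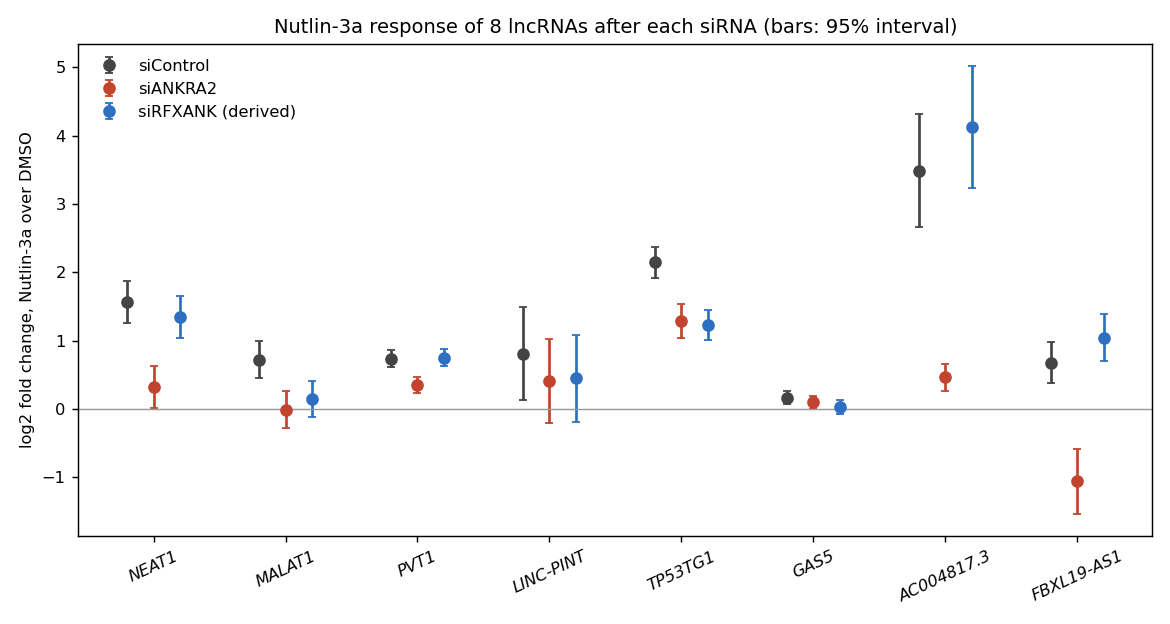
Log2 fold change of each lncRNA for Nutlin-3a over DMSO after each siRNA, with 95% intervals; the siRFXANK values are derived from the other comparisons. For NEAT1 the siANKRA2 point lies far under the others, and for TP53TG1 both knockdowns lie near 1.2 to 1.3. The siANKRA2 points of AC004817.3 and FBXL19-AS1 are descriptions without a test, since siANKRA2 values chose these lncRNAs.

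The share of the siControl response that was kept was computed for each lncRNA, and shares were not tested against each other. Those of AC004817.3 and FBXL19-AS1 in siANKRA2 cells are left out, since siANKRA2 values chose these lncRNAs. In siANKRA2 cells NEAT1 kept 20.6% of its log2 response, MALAT1 -1.20%, PVT1 47.6%, LINC-PINT 51.2%, TP53TG1 60.3% and GAS5 59.4%. The median share was 47.6% in siANKRA2 and 84.8% in siRFXANK cells for the 686 genes of mean 100 or more whose siControl rise reached 2-fold. These genes were picked by their siControl rise, the base of the share, which favours shares under 100%. Of the 6 lncRNAs above, NEAT1 and TP53TG1 meet the same conditions. MALAT1, PVT1, LINC-PINT and GAS5 rose less than 2-fold, so this median is no like measure for them. In siRFXANK cells NEAT1 kept 85.5%, MALAT1 20.2%, PVT1 101%, LINC-PINT 55.7%, TP53TG1 57.2% and GAS5 17.1%. There AC004817.3 had 118% and FBXL19-AS1 153%, with differences of responses that did not pass the test. For LINC-PINT and GAS5 neither difference of responses passed the test.

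For each lncRNA the genes with the nearest centred log2 levels over the 6 groups were sought among 13102 others with a mean of at least 100 (13103 for LINC-PINT). Likeness was the root mean square difference. NEAT1 was closest to SESN3 (0.17), PHYHIP (0.24) and F8 (0.254), and 2 genes lay within 0.25. TP53TG1 was closest to NSG1 (0.15), TRIM22 (0.15) and KDM4B (0.16), with 12 genes within 0.25. GAS5 was closest to UNC45A (0.016), EIF6 (0.030) and INPP5K (0.035), with 988 genes within 0.25, a count that also grows as the range of a gene between groups gets smaller. PVT1 was closest to CSPG4, DPH1 and TAOK3 (527 genes within 0.25), MALAT1 to RPS4XP13, TGFB1I1 and IRF1 (1298 genes), and LINC-PINT to WDR45, TOM1 and SEL1L3 (644 genes). AC004817.3 and FBXL19-AS1 had 0 genes within 0.25. The levels compared include those in siANKRA2 cells, whose large changes chose both, so few near genes follow in part from the choice. Their highest group was 113 and 8.21 times their lowest. AC004817.3 was closest to the lncRNA LINC01468 (0.44), ESM1 (0.52) and SPINK6 (0.75), and FBXL19-AS1 to SYNJ2BP (0.37), L1CAM (0.37) and ZNF605 (0.39).

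The neighbours of the lncRNAs along the chromosomes moved in several ways. PVT1 (ENSG00000249859) covers chr8:127794533-128101253 on the plus strand. MYC, 53098 bases before it on the same strand, was raised like PVT1 by siANKRA2 (1.28 in DMSO and 1.17 in Nutlin-3a). It was lowered by siRFXANK (-1.05 and -0.87), where PVT1 had -0.13 in both treatments, and had -0.01 with Nutlin-3a in siControl cells. CROT starts 165 bases from TP53TG1 on the opposite strand. It rose with Nutlin-3a by 0.96 in siControl and 0.72 in siANKRA2 cells, and fell by 0.43 and 0.68 after siANKRA2 in DMSO and Nutlin-3a. FRMD8, next to NEAT1, rose by 0.56 with Nutlin-3a in siControl cells and by 0.51 after siANKRA2 in DMSO, where NEAT1 fell. PCNX1, the nearest gene before AC004817.3, had -0.11 after siANKRA2 in DMSO and did not share its high value there (all values in the authors' deposited table).

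Overlaps with genes of the opposite strand limit what a count of reads can tell, since the use of strand in counting is not given in the sources used here. FBXL19 overlaps FBXL19-AS1 by 215 bases on the opposite strand, and reads of these bases cannot be told apart if strand was not used. FBXL19 had -0.06 in DMSO and -0.16 in Nutlin-3a after siANKRA2, and -0.21 and -0.32 after siRFXANK, the last 3 of which passed the test (DESeq2 adjusted p under 0.05). ZBTB37 overlaps GAS5 by 801 bases on the opposite strand and fell by 0.37 and 0.86 after siANKRA2, where GAS5 rose. PVT1, MALAT1 and TP53TG1 also overlap genes of the opposite strand, which are absent from the tables. LINC-PINT overlaps MKLN1 by 81 bases, and MKLN1 rose by 0.49 and 0.53 after siANKRA2 and fell by 1.19 and 0.78 after siRFXANK. LINC-PINT also overlaps AC058791.1 by 699 bases and GAS5 overlaps GAS5-AS1 by 42 bases, both on the opposite strand. The deposited means of AC058791.1 and GAS5-AS1 were low, at 0.926 and 1.42. Of the longest transcript of TP53TG1, 33.2% of 31-base stretches also occur in 2 other annotated genes, most of them in RF02196, which overlaps it on the opposite strand. For the other lncRNAs the share in other genes was between 3.80% (NEAT1) and 10.1% (FBXL19-AS1).

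**Figure D4:**
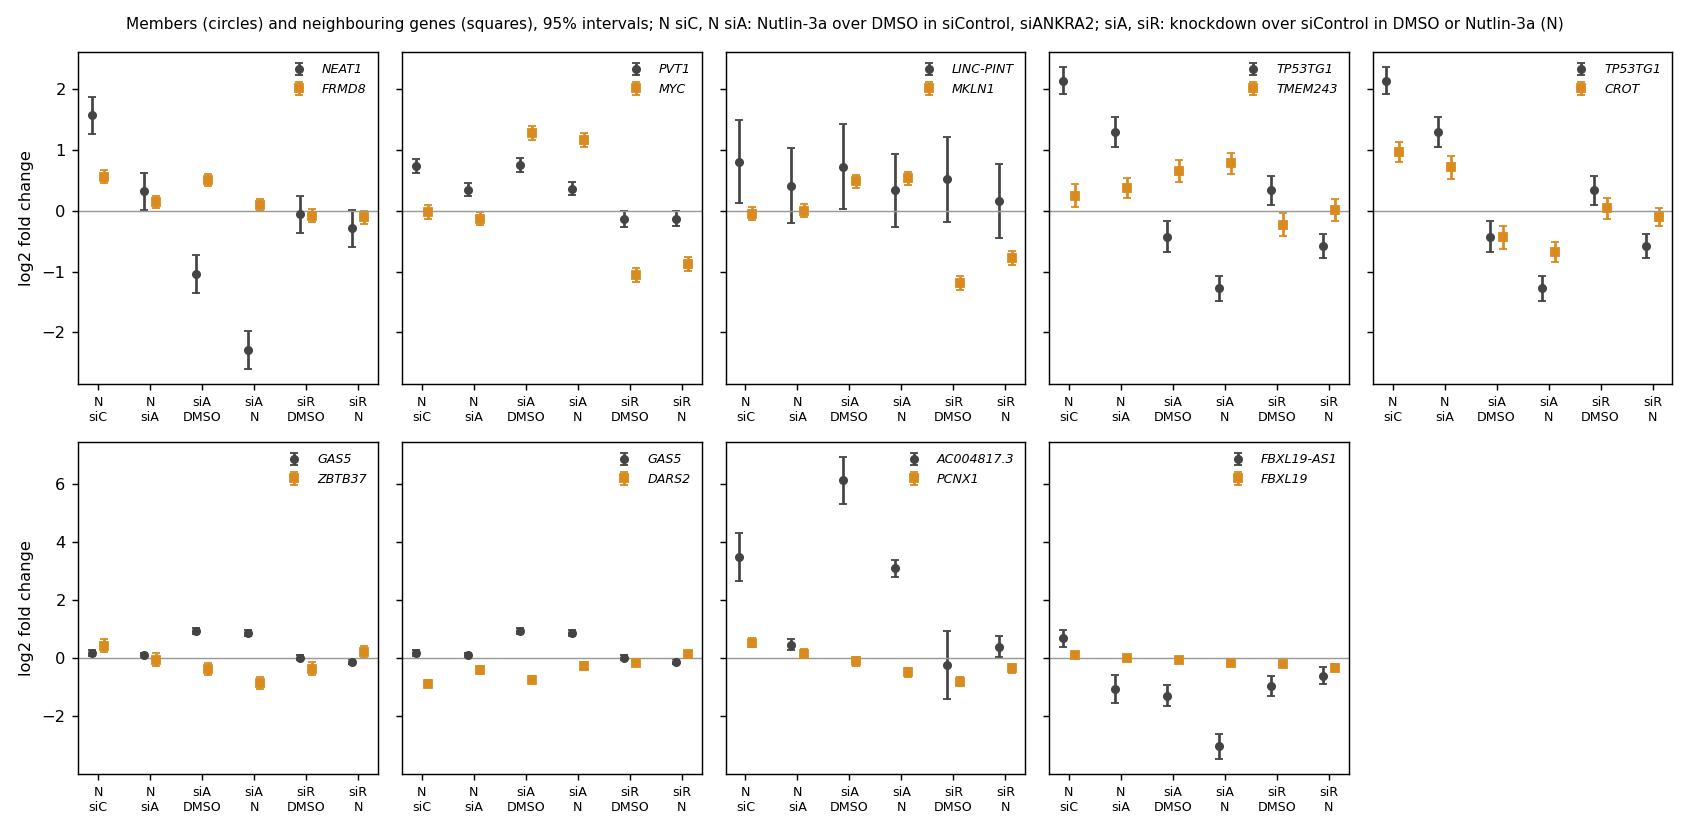
Log2 fold changes with 95% intervals for lncRNAs (circles) and adjacent or overlapping genes with a mean of at least 100 (squares) in the 6 comparisons; the y axis differs between the upper and the lower panels. CROT follows the sign of TP53TG1 for Nutlin-3a and siANKRA2, and MYC lies under PVT1 after siRFXANK.

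Other lncRNAs tied to p53 were read from a list of 20 symbols, of which 13 were tested. The 13 include WRAP53, annotated as protein coding, whose antisense RNA has no value of its own here. With Nutlin-3a in siControl cells 5 were higher and 3 lower (all genes 21.9% and 21.2%), WRAP53 among the lower, and in siANKRA2 cells 6 and 2 (all genes 15.5% and 17.0%). PURPL rose by 2.21 and 0.98 and MIR34AHG, the host of miR-34a, by 1.81 and 0.79. Both responses were smaller in siANKRA2 cells, by -1.23 and -1.02 (normal test of the difference, adjusted p under 0.05), as for NEAT1 and TP53TG1. Over the list, the response was lower for 5 and higher for 2 in siANKRA2 cells, WRAP53 among the latter (all genes 12.5% and 11.4%). The median difference was 0.17, opposite in sign to that of PURPL and MIR34AHG. In siRFXANK cells it was lower for 0 and higher for 1 (all genes 9.64% and 11.6%). After siANKRA2, 2 were higher and 5 lower in DMSO (all genes 24.3% and 24.5%), and 2 and 8 in Nutlin-3a (all genes 24.6% and 25.5%), with LINC00324 at 4.20 and 4.37 and HOTAIR at -2.40 and -1.72. After siRFXANK the counts were 4 higher and 2 lower in DMSO (all genes 20.9% and 21.2%) and 1 and 3 in Nutlin-3a (all genes 19.8% and 19.6%), with TUG1 at -1.32 and -0.78.

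The rise of GAS5 after siANKRA2 was set beside 28 other snoRNA host genes, 25 of them tested. Of these, 19 were higher and 3 lower in DMSO (all genes 24.3% and 24.5%), and 19 and 4 in Nutlin-3a (all genes 24.6% and 25.5%). Their medians were 0.76 and 0.57. SNHG17 (1.77), SNHG5 (1.42) and ZFAS1 (1.03) rose in DMSO, whereas SNHG14 (-0.91), NOP56 (-0.65) and SNHG12 (-0.48) fell. After siRFXANK, 7 were higher and 8 lower in DMSO (all genes 20.9% and 21.2%), and 2 and 9 in Nutlin-3a (all genes 19.8% and 19.6%). Nutlin-3a raised 7 and lowered 6 in siControl cells (all genes 21.9% and 21.2%), and 5 and 6 in siANKRA2 cells (all genes 15.5% and 17.0%). The response was higher for 3 and lower for 0 in siANKRA2 cells (all genes 11.4% and 12.5%), and higher for 2 and lower for 7 in siRFXANK cells (all genes 11.6% and 9.64%). The same shares of all genes hold for each list below. Of the 10 nonsense-mediated decay factors, 6 were higher and 4 lower after siANKRA2 in DMSO (all genes 24.3% and 24.5%) and 5 and 3 in Nutlin-3a (all genes 24.6% and 25.5%). UPF2 fell by 1.02 in DMSO. After siRFXANK 4 were higher and 2 lower in DMSO and 5 and 3 in Nutlin-3a, and Nutlin-3a raised 2 and lowered 6 in siControl cells and raised 1 and lowered 5 in siANKRA2 cells. Their response was higher for 0 and lower for 0 in siANKRA2 cells, and higher for 3 and lower for 1 in siRFXANK cells (same normal test as above).

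**Figure D5:**
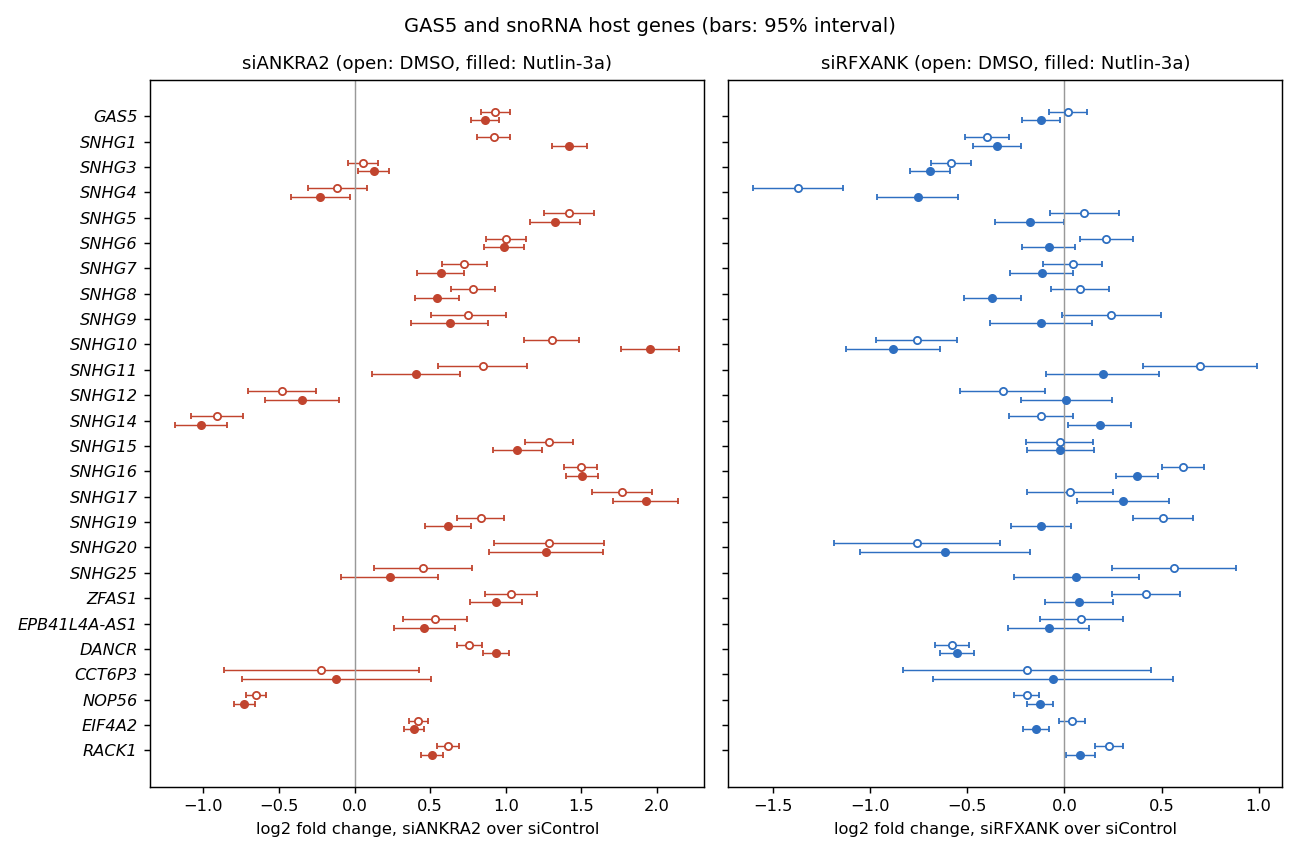
Log2 fold changes with 95% intervals of GAS5 and 25 other snoRNA host genes after siANKRA2 (left) and siRFXANK (right), with open circles for DMSO and filled circles for Nutlin-3a. GAS5 and 19 of the 25 others were higher after siANKRA2 in DMSO, whereas the values after siRFXANK lie on both sides of 0.

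NEAT1 and MALAT1 were set beside the proteins of their nuclear bodies. The list of paraspeckle proteins held 20 symbols, 2 of them names of the same gene (CPSF5 and NUDT21), and 19 were tested. Nutlin-3a raised 0 and lowered 16 in siControl cells, where NEAT1 rose (median -0.32, all genes 21.9% higher and 21.2% lower). In siANKRA2 cells it also raised 0 and lowered 16 (median -0.23, all genes 15.5% and 17.0%). NONO, a core paraspeckle protein, had -0.35 and -0.29, and SFPQ -0.36 and -0.27. After siANKRA2, which lowered NEAT1, 6 were higher and 11 lower in DMSO, and 9 and 9 in Nutlin-3a. After siRFXANK 5 were higher and 8 lower in DMSO, and 8 and 5 in Nutlin-3a. The response was higher for 4 and lower for 1 in siANKRA2 cells and higher for 4 and lower for 2 in siRFXANK cells. All 18 nuclear speckle proteins were tested. Nutlin-3a raised 2 and lowered 13 of them in siControl and raised 1 and lowered 14 in siANKRA2 cells, with SRSF2 at -0.96 and -0.75. After siANKRA2 3 were higher and 13 lower in DMSO (all genes 24.3% and 24.5%), where MALAT1 rose, and 2 and 13 in Nutlin-3a (all genes 24.6% and 25.5%). After siRFXANK 6 were higher and 3 lower in DMSO and 8 and 2 in Nutlin-3a, with PNN at 0.81 and 1.29. The response was higher for 2 and lower for 5 in siANKRA2 cells, and higher for 5 and lower for 0 in siRFXANK cells.

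The p53-linked lncRNAs were also set beside 24 established protein-coding p53 targets. Nutlin-3a raised 24 of 24 in siControl cells (median 1.98), among them CDKN1A (3.27) and MDM2 (3.38), and 23 in siANKRA2 cells (median 1.11). The median rise of the targets was thus between the values of NEAT1 and TP53TG1 in siControl cells. The response was lower for 23 of 24 in siANKRA2 cells (median difference -0.88) and for 19, with 1 higher, in siRFXANK cells (median -0.33). The difference for TP53TG1 of -0.85 in siANKRA2 cells was close to that median, whereas its -0.92 in siRFXANK cells was beyond it. After siANKRA2, 13 targets were higher and 4 lower in DMSO, where NEAT1 and TP53TG1 fell, and 6 were higher and 16 lower in Nutlin-3a. After siRFXANK 18 were higher and 2 lower in DMSO (all genes 20.9% and 21.2%), and 11 and 6 in Nutlin-3a (all genes 19.8% and 19.6%).

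Among all genes of a long noncoding biotype, Nutlin-3a in siControl cells raised 14.1% and lowered 4.78% of 4897, against 28.4% and 28.8% of 15755 protein-coding genes. In siANKRA2 cells it raised 341 and lowered 103 of 3553 lncRNAs, against 20.1% and 21.9% of 14942 protein-coding genes. After siANKRA2, 12.3% of 5234 lncRNAs were higher and 10.1% lower in DMSO, whereas 10.9% were higher and 13.2% lower in Nutlin-3a. After siRFXANK, 7.84% were higher and 8.37% lower of 4897 in DMSO, and 5.56% and 11.4% of 4589 in Nutlin-3a. The Nutlin-3a response was lower for 213 and higher for 63 of 3553 lncRNAs in siANKRA2 cells, and lower for 138 and higher for 62 of 4589 in siRFXANK cells (same normal test as above). Among protein-coding genes it was lower for 16.3% and higher for 15.8% in siANKRA2 and lower for 13.3% and higher for 16.9% in siRFXANK cells. Of the lncRNAs, 416 had a mean of at least 100, and genes of low mean pass the test less easily. The shares of lncRNAs and protein-coding genes were not compared at like means, so they do not show which kind responds more often.

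The siRFXANK samples are labelled as bone tissue and as epithelial cells, and the markers of both kinds were examined. Of 12 bone and mesenchymal markers 10 were tested, while SP7 and IBSP were absent from the tables. In siControl DMSO cells COL1A1 (72797 normalized counts), VIM (49725), SPARC (31980.5), FN1 (8566) and CDH2 (5243) were abundant, and RUNX2 was at 479. SPP1 (66.4), ALPL (47.7) and COL1A2 (24.6) were low there, and BGLAP had a deposited mean of 2.08. Of 10 epithelial markers, KRT8 (24833) and KRT18 (12123) were abundant in the same cells, with CLDN4 at 656, EPCAM at 167 and KRT14 at 143. CDH1 was at 17.2, KRT5 at 15.1 and ESRP1 at 6.80, and KRT19 and CLDN7 had deposited means under 2. Of 4 leukocyte markers, PTPRC and CD14 had recovered levels under 10 in every group. After siANKRA2, PTPRC was higher in DMSO and CD14 in Nutlin-3a, both at these low levels, and after siRFXANK 0 were called by the DESeq2 Wald test. Beside the changes of the lncRNAs, the bone and mesenchymal markers had 6 higher and 3 lower after siANKRA2 in DMSO and 3 and 3 in Nutlin-3a. After siRFXANK they had 4 higher and 2 lower in DMSO and 0 and 5 in Nutlin-3a. The epithelial markers had 4 higher and 2 lower after siANKRA2 in DMSO, with CDH1 at 1.56, and 5 and 3 in Nutlin-3a. After siRFXANK they had 0 higher and 4 lower in each treatment, with CDH1 at -1.35 in DMSO. With Nutlin-3a, the bone and mesenchymal markers had 7 higher and 2 lower in siControl and 3 and 2 in siANKRA2 cells, and the epithelial markers 3 and 1, and 1 and 1. The response of the bone and mesenchymal markers was lower for 6 and higher for 1 of 9 in siANKRA2 cells (median -0.39), and lower for 5 and higher for 0 of 10 in siRFXANK cells. That of the epithelial markers was lower for 4 and higher for 1 of 8 in siANKRA2, and lower for 3 and higher for 0 of 9 in siRFXANK cells. No leukocyte marker was called in these 4 comparisons. Whether the lncRNA results are tied to these marker changes was not tested.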

How the data were processed

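RNA-seq of 18 U2OS samples was read from 6 tables of comparisons deposited by the authors, with no values per sample. The members and the gene lists were chosen with earlier results of these data known. Per the submitters' processing notes, the tools were bcl2fastq 2.20.0.422, Trimmomatic 0.39, cutadapt 2.10, FastQC 0.11.9, SAMtools 1.10, Picard, featureCounts 1.6.5 and DESeq2 1.20.0, with the build hg38. The aligner and the use of strand are not given in the sources used here.

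The deposited tables give for each gene the authors' mean normalized count, used as a signal value. It is the mean over all samples of the authors' fit. Whether that fit held samples outside the groups compared here was not tested. Every minimum mean and every set of genes of like mean rests on this deposited mean. Beside this mean are the log2 fold change from the authors and its standard error. The p-value of the authors' DESeq2 Wald test is given before and after Benjamini-Hochberg adjustment. The deposited Wald statistic was not used. Summed around the siControl and siANKRA2 groups, the 4 log2 fold changes cancelled within 1.4e-14 over 22738 genes, so these 4 tables come from 1 joint fit. For siRFXANK such a sum could not be formed, since no Nutlin-3a over DMSO comparison is given. The table of siRFXANK over siControl in DMSO shares its 25909 genes and lowest mean, 0.882585619266629, with that of Nutlin-3a in siControl cells, as within 1 fit. The 6 tables hold 22738 to 26702 genes, and of 26702 gene IDs 26659 are in GENCODE 29. A gene was called at an adjusted p under 0.05.

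The following was computed here. The difference of 2 Nutlin-3a responses was scaled by its own standard error, the root of the sum of both squared, with a two-sided normal p adjusted by Benjamini-Hochberg over all genes with both values. For siRFXANK it was the knockdown comparison in Nutlin-3a minus that in DMSO, and the derived response added the siControl response. Group levels and a dispersion were fitted by least squares to the squared standard errors, taking the variance of a log2 mean as (1/mean + dispersion)/(3 ln2 squared), the 3 being the samples of a group. Intervals cover 95%. The siANKRA2 difference test and the recovery of levels were tested on simulated data. Knockdown comparisons were taken as knockdown over siControl, although the file titles order them the other way. Named genes were the 8 lncRNAs, the siRNA targets, overlapping and nearest annotated genes, the 3 genes of mean at least 100 nearest in pattern, and members of lists of p53-linked lncRNAs, snoRNA hosts, paraspeckle, nuclear speckle and nonsense-mediated decay proteins, p53 targets and markers of bone and mesenchymal, epithelial and leukocyte cells. Some genes of these lists are not reported here by name. Alternatives were another threshold, a minimum fold change, other sets of tested genes and other centrings. Tools were Python 3.11.15, numpy 2.4.6, scipy 1.17.1, pandas 2.3.3 and matplotlib 3.10.9.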

Additional observations from a re-analysis of the deposited data

Results flagged for a closer look

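A difference between groups of cells in the response to Nutlin-3a was found for 4 of the 6 lncRNAs tested in siANKRA2 cells, where 12.5% of 22738 genes had a lower and 11.4% a higher response. Relative to siControl cells, the log2 response differed by -1.25 for NEAT1, by -0.85 for TP53TG1, by -0.73 for MALAT1 and by -0.39 for PVT1 (normal test of the difference with Benjamini-Hochberg adjusted p under 0.05). In siRFXANK cells the response differed from that of siControl cells by -0.92 for TP53TG1 and by -0.58 for MALAT1 (same test), where 9.64% of 25116 genes had a lower and 11.6% a higher response. The siControl samples are shared by these differences.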

How the results depend on the processing

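Of 57 counts of lncRNAs called under an alternative, 48 stayed within 1.5 times the count given above. When a log2 fold change of 1 in either direction was also required, the lncRNAs called were 3 for Nutlin-3a in siControl cells, 1 for Nutlin-3a in siANKRA2 cells, 1 for siANKRA2 in DMSO, 2 for siANKRA2 in Nutlin-3a, 0 for siRFXANK in either treatment, 1 for the siANKRA2 difference of responses and 0 for the siRFXANK difference. At a threshold of 0.01, the siRFXANK difference was called for 1 (TP53TG1, without MALAT1), and the calls of LINC-PINT with Nutlin-3a in siControl cells, of TP53TG1 after siRFXANK in DMSO and of GAS5 after siRFXANK in Nutlin-3a were lost. LINC-PINT is not among genes with a mean of at least 100.

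Centring on genes with a mean of at least 100 or 1000 moved log2 fold changes by at most 0.042. It turned the MALAT1 response in siANKRA2 cells to 0.0104 and 0.0309 and the PVT1 difference of responses in siRFXANK cells to -0.0032 and -0.0213, neither of which passed the test. With group levels fixed to average to the deposited mean, the siControl DMSO level was 4845 for NEAT1, 2400 for MALAT1, 745 for PVT1, 2037 for GAS5 and 170 for FBXL19-AS1, so levels are approximate. This setting takes the deposited mean as the mean over the groups, which was not shown and does not hold for ANKRA2. What moved the levels was not examined.

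No paired analysis was possible because the tables hold no values per sample. Likewise, a leave-one-out run, a replicate block and another count tool were not run, and the depth of samples and the weight of any 1 sample in these results are unknown. Each siRNA target had 1 siRNA label, and off-target effects were not tested.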
